A study of Mus musculus with 48 samples.

Results

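Arntl, Clock and Npas2 encode the transcriptional activators of the molecular clock, and they were taken by gene name as 3 of the 56748 genes in the table of expression values. Arntl encodes BMAL1 and is listed as Bmal1 in newer annotations. BMAL1 pairs with CLOCK, or with the CLOCK paralog NPAS2, and the pair binds E-box sequences and drives transcription of the Per and Cry genes, whose proteins then inhibit the pair. In a further loop the REV-ERB receptors (Nr1d1 and Nr1d2) repress, and the ROR receptors activate, Arntl through ROR elements. In skeletal muscle BMAL1 is known for the daily timing of genes of glucose and lipid metabolism.

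RNA-seq was performed on the tibialis anterior, a fast muscle of the lower leg, from 48 male mice of 39 to 55 weeks in constant darkness. Mice were wild type (WT) or FoxP1SkmKO, homozygous for a floxed FoxP1 and carrying a Cre transgene driven by the promoter of ACTA1, the actin of skeletal muscle fibers, so that other cells of the muscle keep FoxP1. The pancreas was injected with murine KPC pancreatic cancer cells in PBS, or with PBS alone in the control mice. Muscles were taken every 4 h from circadian time (CT) 18 to CT38, at 6 times, from 2 mice per group, which gave 24 groups and 4 arms of 12 mice: WT control, WT KPC, FoxP1SkmKO control and FoxP1SkmKO KPC. The labels call the WT mice C57BL/6J, whereas the design text calls them floxed mice that lack Cre, and the study's text is not uniform on the age of the mice. The first and second mouse of a group, in the order of the labels' replicate numbers, are separate animals, so the spread given here is between animals.

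Libraries held between 14480867 and 20787784 counts (median 16602091). Foxp1, the targeted gene (ENSMUSG00000030067, mm39 chr6:98902299-99499682), was at 0.630 ± 0.140 FPKM (SD, n = 12) in WT control and 0.578 ± 0.0682 FPKM (SD, n = 12) in FoxP1SkmKO control mice, and at 0.629 ± 0.102 FPKM (SD, n = 12) in WT KPC and 0.544 ± 0.0744 FPKM (SD, n = 12) in FoxP1SkmKO KPC mice. The genotype difference of Foxp1 was -0.11 on the log2 scale (SE 0.07, adjusted p = 0.459) in control and -0.20 (SE 0.07, adjusted p = 0.246) in KPC mice (quasi-likelihood test of edgeR, p-values adjusted by Benjamini-Hochberg over all genes), and these counts cover the whole gene, so the deleted part was not checked separately and the genotypes are used as labelled. The sum of 12 fast fiber genes was between 63103 and 85820 FPKM in every library. The sum of 7 pancreas and liver genes, 3 of which were at 0 in every library, reached 151 FPKM in the second FoxP1SkmKO KPC mouse at CT18 and 46.7 FPKM in the first FoxP1SkmKO control mouse at CT22, against medians of 0.0623 to 0.521 FPKM in the 4 arms. Results for the 3 activators whose call or sign changed when these 2 libraries were left out are given with and without them. The sum of 5 neutrophil genes had medians of 0.361 and 1.83 FPKM in WT control and WT KPC mice and of 0.277 and 1.06 FPKM in FoxP1SkmKO control and FoxP1SkmKO KPC mice, with a highest value of 18.3 FPKM in 1 FoxP1SkmKO KPC library, and the sum of 5 fibroblast genes had medians of 50.4 and 30.6 FPKM in WT control and WT KPC mice and of 46.1 and 26.3 FPKM in FoxP1SkmKO control and FoxP1SkmKO KPC mice. The sum of 5 Schwann cell and neuron genes had medians of 15.6, 13.0, 14.4 and 10.001 FPKM in WT control, WT KPC, FoxP1SkmKO control and FoxP1SkmKO KPC mice, and the part of these 3 lists in the KPC results was not tested. In whole muscle, fewer cells of a type and less RNA per cell cannot be told apart.

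The 3 activators lay far apart in level and in the size of their daily change. Over the 48 mice Arntl (ENSMUSG00000055116, mm39 chr7:112806672-112913333, plus strand) was at 2.46 ± 1.35 FPKM (SD, n = 48), with a range of 0.683 to 5.07, and was higher than 78.9% of the 33218 genes with a read. Clock (ENSMUSG00000029238, chr5:76357715-76452639, minus strand) was at 1.81 ± 0.374 FPKM (SD, n = 48), with a range of 0.944 to 2.57, and was higher than 75.7% of genes. Npas2 (ENSMUSG00000026077, chr1:39232812-39402317, plus strand) was at 0.212 ± 0.188 FPKM (SD, n = 48), with a range of 0.0128 to 0.632, and was higher than 56.7% of genes. FPKM is a level per length of the gene and per library size, and can be set side by side between genes. The reads behind these values ran from 79 to 740 for Arntl, from 209 to 648 for Clock and from 1 to 63 for Npas2, so that single values of Npas2 carry the largest counting error. In GENCODE vM39, 3 genes overlap each activator on the other strand, among them the protein-coding Tmem165 at the 3′ end of Clock, and the strand setting of the counting is not given in the sources used here, so reads of such a partner could be counted with the activator. Clock overlaps 5 genes in all and Npas2 4, so some lie on the same strand, where no strand setting would separate their reads.

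The promoters of the 3 genes were read from the reference genome for the elements through which the clock loops act, since the known control of Arntl and of the E-box genes runs through them. In a window of 500 bases before to 200 bases after the transcription start (GRCm39, GENCODE vM39 canonical transcripts), Arntl held a ROR element match and a forkhead core match, FOXP1 being a forkhead protein, and both lay in exon 1 in the 5′ UTR. The window was widened to this size after a narrower one held no match, so it was not fixed beforehand. The ROR element match covers bases 106 to 112 after the start (capitals; chr7:112806738-112806764, plus strand) and the forkhead match bases 127 to 133 (capitals; chr7:112806759-112806785, plus strand).
Arntl ROR element: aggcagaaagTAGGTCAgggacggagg
Arntl forkhead core: cggaggtgccTGTTTACccgcgccgga
The letters searched on both strands were CACGTG (E-box), TAGGTCA or TGGGTCA (ROR element), TTATGTAA or TTATGCAA (D-box) and TGTTTAC (forkhead), and none of them was in the window of Clock or of Npas2. Among 21770 promoters of protein-coding genes, windows of the same length held an E-box in 13.3%, a ROR element in 13.5%, a D-box in 3.81% and a forkhead core in 7.34%. Among 13 clock genes regarded as E-box targets, 7 held the E-box letters in this window, and 3 of them are shown with the E-box in capitals to let a reader see what the activators bind: Per1 (chr11:68989236-68989261, plus strand), Cry1 (chr10:85020963-85020988, minus strand) and Nr1d1 (chr11:98666511-98666536, minus strand).
Per1 E-box: cccttaacgaCACGTGggccctcaat
Cry1 E-box: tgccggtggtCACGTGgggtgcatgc
Nr1d1 E-box: gttctccaatCACGTGaagctctcac
A match of letters is a description of the reference sequence and not a measured binding site.

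Arntl was high at CT18 to CT26, from the middle of the active phase of a nocturnal animal to just after it, and low at CT30 to CT38, in every arm. In WT control mice Arntl was at 2.82 and 3.40 FPKM at CT18, 4.87 and 4.02 at CT22, 4.09 and 3.26 at CT26, 1.67 and 1.48 at CT30, 0.801 and 0.754 at CT34 and 1.51 and 1.15 at CT38. The lowest of the 6 values at CT18 to CT26 lay above the highest of the 6 values at CT30 to CT38. WT KPC mice had 3.32 and 2.995 FPKM at CT18, 3.52 and 4.55 at CT22, 3.20 and 3.70 at CT26, 1.44 and 1.42 at CT30, 0.770 and 0.949 at CT34 and 0.940 and 2.03 at CT38. At CT38 the 2 tumor-bearing WT mice differed more from each other than the 2 control mice did. FoxP1SkmKO control mice had 3.62 and 3.46 FPKM at CT18, 3.91 and 4.37 at CT22, 3.33 and 3.42 at CT26, 1.22 and 1.25 at CT30, 0.766 and 0.683 at CT34 and 1.80 and 1.48 at CT38. FoxP1SkmKO KPC mice had 3.75 and 3.57 FPKM at CT18, 4.83 and 5.07 at CT22, 3.01 and 2.14 at CT26, 1.13 and 1.02 at CT30, 0.701 and 1.07 at CT34 and 1.88 and 2.00 at CT38. In this arm both CT26 values were below both CT18 values, and the CT22 values were the highest of the arm.

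Clock, the binding partner of BMAL1, changed far less over the day. In WT control mice Clock was at 1.91 and 1.89 FPKM at CT18, 1.95 and 2.19 at CT22, 1.83 and 1.81 at CT26, 2.21 and 1.88 at CT30, 1.44 and 1.52 at CT34 and 1.73 and 1.27 at CT38. The 8 values at CT18 to CT30 were all above the 4 values at CT34 and CT38. WT KPC mice had 2.33 and 1.98 FPKM at CT18, 1.99 and 2.09 at CT22, 2.25 and 2.00 at CT26, 1.96 and 1.93 at CT30, 1.38 and 1.34 at CT34 and 1.02 and 0.944 at CT38. The 2 CT38 values were the lowest of Clock in the 48 mice. FoxP1SkmKO control mice had 2.15 and 2.28 FPKM at CT18, 2.31 and 2.10 at CT22, 1.76 and 1.92 at CT26, 1.80 and 1.69 at CT30, 1.28 and 1.11 at CT34 and 1.62 and 1.69 at CT38. FoxP1SkmKO KPC mice had 2.00 and 1.73 FPKM at CT18, 2.57 and 2.42 at CT22, 2.11 and 1.83 at CT26, 1.78 and 2.00 at CT30, 1.39 and 1.37 at CT34 and 1.39 and 1.56 at CT38. The lowest single value lay at CT34 in both FoxP1SkmKO arms and at CT38 in both WT arms, but not all of these places were clear. In WT control mice the second CT38 mouse alone, at 1.27 FPKM, set the minimum, and the mean of the 2 mice was slightly lower at CT34 than at CT38. In FoxP1SkmKO KPC mice the lowest values at CT34 and CT38 were close, at 1.37 and 1.39 FPKM. Whether the time of the lowest value differed between the genotypes was not tested.

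Npas2, which can take the place of CLOCK beside BMAL1, was the lowest of the 3 activators and went through the deepest trough. In WT control mice Npas2 was at 0.224 and 0.135 FPKM at CT18, 0.455 and 0.484 at CT22, 0.485 and 0.387 at CT26, 0.116 and 0.111 at CT30, 0.0240 and 0.0260 at CT34 and 0.111 and 0.0537 at CT38. The CT22 and CT26 values stood apart from all others of the arm. WT KPC mice had 0.299 and 0.218 FPKM at CT18, 0.566 and 0.551 at CT22, 0.296 and 0.315 at CT26, 0.151 and 0.0801 at CT30, 0.0643 and 0.0284 at CT34 and 0.0513 and 0.142 at CT38. Here CT22 stood alone, with CT26 near CT18. FoxP1SkmKO control mice had 0.184 and 0.158 FPKM at CT18, 0.525 and 0.632 at CT22, 0.105 and 0.572 at CT26, 0.0366 and 0.0900 at CT30, 0.0553 and 0.0271 at CT34 and 0.121 and 0.0235 at CT38. The 2 mice at CT26 in this arm differed most, with 9 and 49 reads. FoxP1SkmKO KPC mice had 0.185 and 0.195 FPKM at CT18, 0.420 and 0.579 at CT22, 0.332 and 0.232 at CT26, 0.0254 and 0.122 at CT30, 0.0501 and 0.0128 at CT34 and 0.0629 and 0.0511 at CT38. At CT34 Npas2 rested on 1 to 5 reads per library over the 4 arms, so its trough is known only as close to the detection limit.

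**Figure D1:**
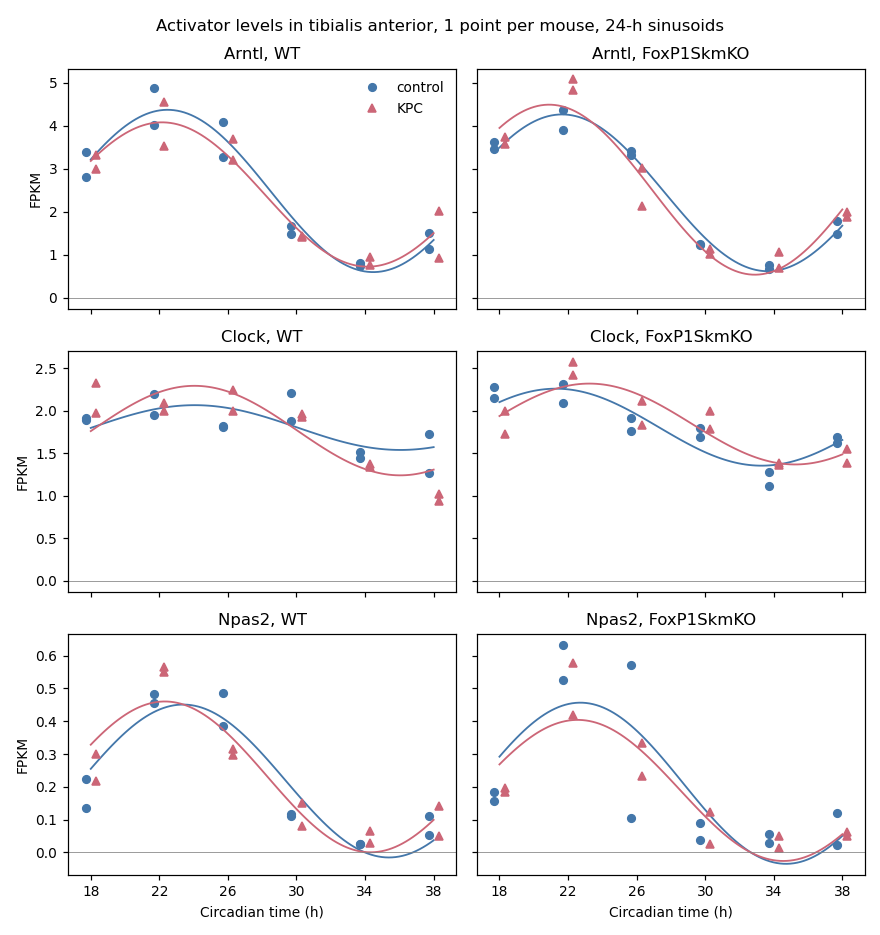
FPKM of Arntl, Clock and Npas2 (vertical axes, starting near 0) against circadian time in hours, with WT on the left and FoxP1SkmKO on the right, 1 point per mouse (circles control, triangles KPC, set slightly apart) and the fitted 24-h sinusoid of each arm as a line. Arntl and Npas2 fall to a trough at CT34 in every panel (means over the 8 mice of all arms of 0.812 and 0.0360 FPKM), whereas Clock moves between 0.944 and 2.57 FPKM.

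Taking the 4 arms together, all 3 activators were highest at CT22 and lowest at CT34. Mean Arntl over 8 mice was 3.37, 4.39, 3.27, 1.33, 0.812 and 1.60 FPKM from CT18 to CT38, mean Clock was 2.03, 2.20, 1.94, 1.91, 1.35 and 1.40 FPKM, and mean Npas2 was 0.200, 0.526, 0.341, 0.0916, 0.0360 and 0.0770 FPKM. From CT22 to CT34 Arntl fell by 2.44 on the log2 scale (SE 0.11, adjusted p = 1.8e-17), Clock by 0.70 (SE 0.06, adjusted p = 7.5e-11) and Npas2 by 3.84 (SE 0.34, adjusted p = 3.4e-10) in the edgeR test on the counts, with 3 of 3 members called at an adjusted p under 0.05, as were 19.0% of all 15637 genes tested. Within each arm the test of any difference among the 6 times called all 3 activators as well, against 18.7% of all genes in WT control, 11.0% in WT KPC, 6.40% in FoxP1SkmKO control and 5.99% in FoxP1SkmKO KPC mice. The largest adjusted p among these 12 tests was that of Clock in WT control mice, at 0.00311.

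Which neighbors in the order of the times differed was not the same for the 3 genes. For Arntl, CT22 was above CT18 (log2 difference 0.40, SE 0.10, adjusted p = 0.00819 by edgeR), CT18 and CT26 did not differ beyond their spread (-0.04, SE 0.10, adjusted p = 0.813), CT38 lay 1.03 below CT26 on the log2 scale (-1.03, SE 0.10, adjusted p = 8.9e-09), CT38 and CT30 did not differ at the threshold (0.26, SE 0.11, adjusted p = 0.171), and CT34 was below CT30 (-0.70, SE 0.12, adjusted p = 5.4e-04). For Clock the 6 times fell into an upper and a lower set. CT22 and CT18 did not differ at the threshold (0.13, SE 0.06, adjusted p = 0.168 by edgeR), nor did CT26 and CT18 (-0.06, SE 0.06, adjusted p = 0.532), CT26 and CT22 (-0.18, SE 0.06, adjusted p = 0.0859) or CT30 and CT26 (-0.02, SE 0.06, adjusted p = 0.865), CT30 was below CT22 (-0.20, SE 0.06, adjusted p = 0.0140), CT38 was below CT30 (-0.47, SE 0.06, adjusted p = 8.7e-07), and CT38 and CT34 did not differ beyond their spread (0.02, SE 0.06, adjusted p = 0.926). For Npas2, CT22 and CT26 did not differ at the threshold (-0.65, SE 0.25, adjusted p = 0.175 by edgeR), CT26 was above CT18 (0.78, SE 0.27, adjusted p = 0.0349), CT18 was above CT30 (-1.12, SE 0.32, adjusted p = 0.0132), and neither CT38 and CT30 (-0.23, SE 0.37, adjusted p = 0.825) nor CT38 and CT34 (1.07, SE 0.44, adjusted p = 0.226) differed at the threshold. Between these neighboring times the share of all genes called was 8.22% for CT22 against CT18, 22.2% for CT26 against CT18, 1.96% for CT26 against CT22, 17.5% for CT38 against CT26, 17.7% for CT30 against CT26, 18.6% for CT30 against CT18, 13.0% for CT30 against CT22, 7.32% for CT38 against CT30, 1.84% for CT34 against CT30 and 2.91% for CT38 against CT34.

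Because CLOCK and NPAS2 share BMAL1 as their partner, the ratio of their transcripts was taken in each mouse. The median ratio of Clock to Npas2 FPKM over 8 mice was 9.94 at CT18, 4.23 at CT22, 6.35 at CT26, 18.9 at CT30, 44.2 at CT34 and 20.9 at CT38. Clock was thus the more abundant transcript in all 48 mice, from 3.32 times at CT22 to 106 times at CT34. The ratio of Arntl to Clock had a median of 1.60, 1.98, 1.79, 0.735, 0.579 and 1.02 at the same times, with Arntl above Clock in every mouse at CT18, CT22 and CT26 (lowest ratio 1.17) and below it in every mouse at CT30 and CT34 (highest ratio 0.787). At CT34 the ratio to Npas2 rests on 1 to 5 Npas2 reads, so its size there is imprecise.

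**Figure D2:**
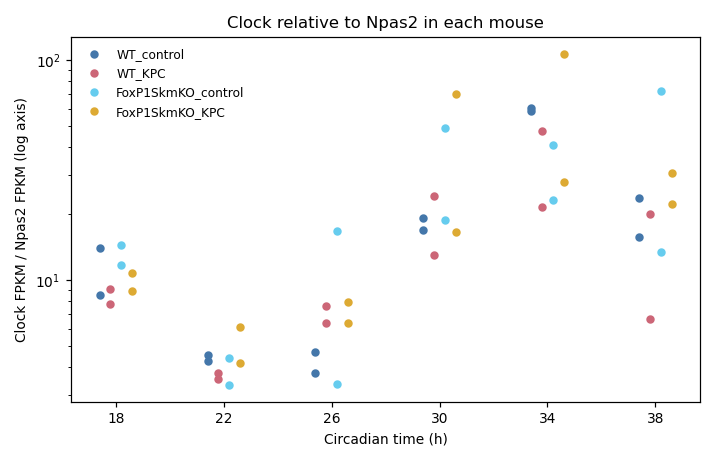
Ratio of Clock FPKM to Npas2 FPKM (log axis) against circadian time in hours, 1 point per mouse, with the 4 arms in separate colors set slightly apart. Over the 4 arms together the median is lowest at CT22 (4.23) and highest at CT34 (44.2), while in WT control mice the lowest point is at CT26 (3.77) and in FoxP1SkmKO control mice the highest is at CT38 (71.9).

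The FPKM values of each arm were fitted with a sinusoid of 24 h, and an unadjusted p under 0.01 was the threshold for a rhythm. By this rule 10 of 12 fits of the activators were rhythmic, where 4.92% of all genes were in WT control, 4.22% in WT KPC, 4.07% in FoxP1SkmKO control and 2.63% in FoxP1SkmKO KPC mice. Arntl was rhythmic in all 4 arms (n = 12 mice each), with p = 1.4e-06, 1.2e-05, 1.0e-08 and 6.2e-06 in the order WT control, WT KPC, FoxP1SkmKO control and FoxP1SkmKO KPC. Its basal level was 2.49 ± 0.102, 2.40 ± 0.117, 2.44 ± 0.0561 and 2.51 ± 0.127 FPKM (SE, n = 12) in that order, and its amplitude 1.88 ± 0.144, 1.68 ± 0.165, 1.82 ± 0.0793 and 1.97 ± 0.180 FPKM (SE, n = 12). The amplitude of Arntl was thus 0.697 to 0.785 of its basal level. Clock was rhythmic in WT KPC (p = 0.00581), FoxP1SkmKO control (p = 5.4e-04) and FoxP1SkmKO KPC mice (p = 8.9e-04, n = 12 in each), and its p was 0.0524 in WT control mice. Its basal level was 1.80 ± 0.0645, 1.77 ± 0.0848, 1.81 ± 0.0514 and 1.84 ± 0.0578 FPKM (SE, n = 12) and its amplitude 0.263 ± 0.0912, 0.526 ± 0.120, 0.453 ± 0.0726 and 0.475 ± 0.0817 FPKM (SE, n = 12), or 0.146 to 0.298 of the basal level. Clock had the shallowest rhythm of the 3 activators in each arm. Npas2 was rhythmic in WT control (p = 5.4e-05), WT KPC (p = 1.4e-04) and FoxP1SkmKO KPC mice (p = 6.1e-04, n = 12 in each), and its p was 0.0102 in FoxP1SkmKO control mice, the arm with the 2 discordant CT26 mice. Its basal level was 0.218 ± 0.0196, 0.230 ± 0.0218, 0.211 ± 0.0435 and 0.189 ± 0.0248 FPKM (SE, n = 12) and its amplitude 0.233 ± 0.0277, 0.230 ± 0.0308, 0.246 ± 0.0616 and 0.215 ± 0.0351 FPKM (SE, n = 12), or 0.999 to 1.17 of the basal level.

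With adjustment over all genes the calls for Arntl held (adjusted p = 0.00417, 0.0186, 1.5e-04 and 0.0176 in the 4 arms, where 0.551, 0.475, 0.414 and 0.116% of all genes passed), and so did those for Npas2 in WT control (0.0208) and WT KPC mice (0.0399), but not that of Npas2 in FoxP1SkmKO KPC mice (0.136) or any of those for Clock (0.189, 0.0762 and 0.165 in WT KPC, FoxP1SkmKO control and FoxP1SkmKO KPC mice). On the counts, a sinusoid fitted by edgeR in 1 model over the 48 libraries gave an unadjusted p under 0.05 for all 12, with a peak over trough of 4.71-fold to 5.57-fold for Arntl, 1.36-fold to 1.91-fold for Clock and 9.50-fold to 15.6-fold for Npas2. In that model Clock in WT control mice was the 1 of 12 with an adjusted p above 0.05 (adjusted p = 0.118), and Npas2 in FoxP1SkmKO control mice had an adjusted p of 4.4e-07, where 11.5, 7.92, 5.26 and 4.83% of all genes were called in the 4 arms. Without the first FoxP1SkmKO control mouse at CT26 the FPKM sinusoid gave a p of 0.00156 for Npas2 in that arm, and the rhythm of Clock in WT KPC mice lost its threshold in 6 fits that each left out 1 mouse, the second at CT22 (p of 0.0109), the first at CT26 (0.0159), the first or second at CT34 (0.0132 and 0.0143) and the first or second at CT38 (0.0175 and 0.0155).

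Peak times of the 3 activators lay within a few hours of each other, from CT20.9 to CT24.1. Arntl peaked at CT22.5 ± 0.292 h in WT control, CT22.2 ± 0.377 h in WT KPC, CT21.7 ± 0.166 h in FoxP1SkmKO control and CT20.9 ± 0.348 h in FoxP1SkmKO KPC mice (SE, n = 12). Clock peaked at CT24.1 ± 1.32 h, CT24.0 ± 0.871 h, CT21.3 ± 0.613 h and CT23.2 ± 0.656 h in the same order (SE, n = 12). Npas2 peaked at CT23.4 ± 0.454 h, CT22.3 ± 0.511 h, CT22.7 ± 0.956 h and CT22.6 ± 0.623 h (SE, n = 12). The standard errors of Clock are the widest in WT control mice, where its amplitude is smallest.

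**Figure D3:**
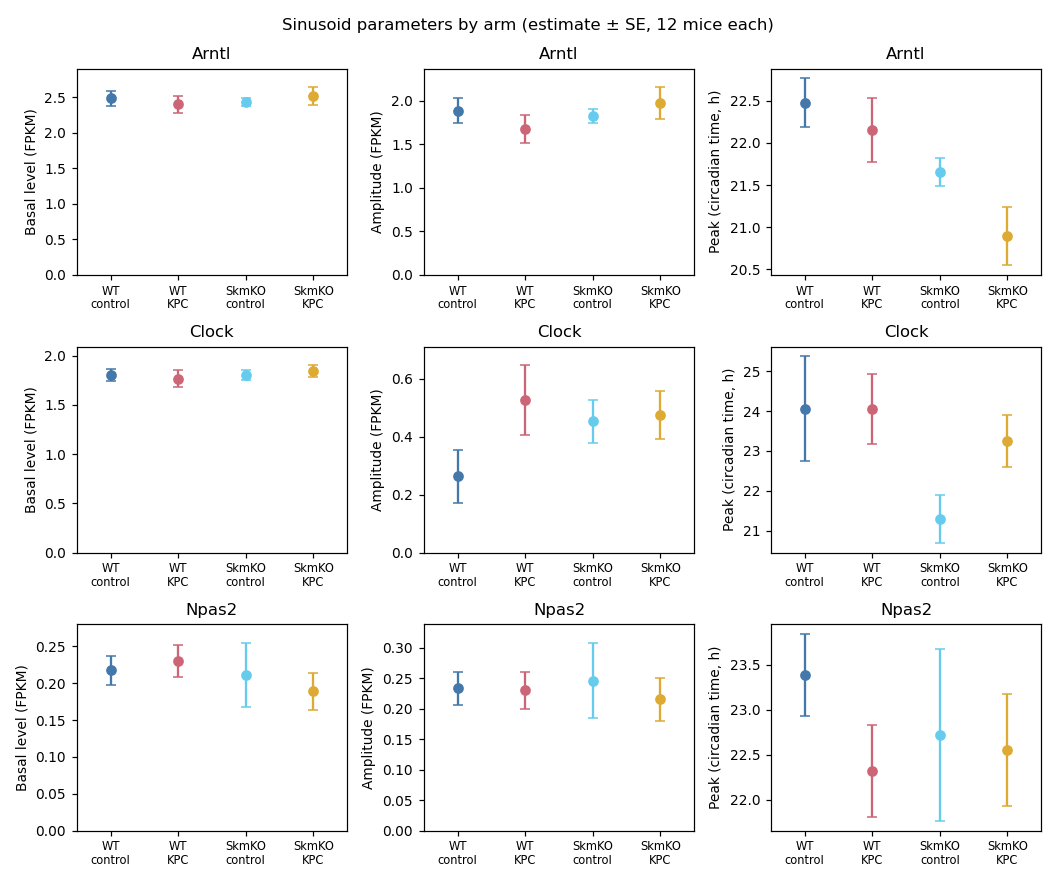
Basal level (FPKM, axis from 0), amplitude (FPKM, axis from 0) and peak (circadian time in hours, axis not from 0) of the fitted sinusoid for each activator in the 4 arms, as estimate ± SE over 12 mice. Basal levels of Arntl and Clock differ between arms by less than the SE of the difference, and the peak of Arntl runs from CT22.5 in WT control to CT20.9 in FoxP1SkmKO KPC mice.

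The daily profile of Clock was not a plain sinusoid. Over the 4 arms the time means of Clock departed from the fitted curves with F = 5.73 on 12 and 24 degrees of freedom (n = 48 mice, p = 1.4e-04, adjusted p = 0.0227 over 33218 genes, of which 1.25% were called). Its means lay above the curve at CT30 in all 4 arms, by 0.194 FPKM on average and 0.140 to 0.239 FPKM by arm, and below it at CT26 in all 4 arms, by 0.167 FPKM on average (-0.230 to -0.103 FPKM by arm). The means of Clock in the 4 arms lay between 1.82 and 2.12 FPKM at CT26, between 1.74 and 2.05 FPKM at CT30 and between 1.196 and 1.48 FPKM at CT34, while the mean of Arntl over the arms dropped from 3.27 FPKM at CT26 to 1.33 FPKM at CT30. The same test over the 48 mice gave an adjusted p of 0.362 for Npas2 and of 0.721 for Arntl.

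To ask whether pancreatic tumors change the activators, KPC mice were compared with control mice over the 6 times together and at each time. Averaged over the times, Arntl differed between KPC and control by -0.01 on the log2 scale (SE 0.09, adjusted p = 0.979) in WT and 0.04 (SE 0.09, adjusted p = 0.902) in FoxP1SkmKO mice by edgeR. Clock differed by -0.07 (SE 0.05, adjusted p = 0.503) and 0.03 (SE 0.05, adjusted p = 0.861), and Npas2 by 0.23 (SE 0.28, adjusted p = 0.756) and -0.13 (SE 0.29, adjusted p = 0.910). None of these 6 tests passed the threshold with edgeR or with DESeq2, and none had an unadjusted p under 0.05, while 1.79% of all genes were called in WT and 0.428% in FoxP1SkmKO mice. The difference of the KPC effect between the genotypes was 0.05 (SE 0.12, adjusted p = 0.967) for Arntl, 0.10 (SE 0.07, adjusted p = 0.838) for Clock and -0.36 (SE 0.40, adjusted p = 0.919) for Npas2 by edgeR, a test that called 0.00% of all genes and had 1020 genes at an unadjusted p under 0.05. The errors of Npas2 leave room for changes of a size that those of Arntl and Clock do not.

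At single times edgeR called none of the 36 tests of the 3 activators (3 genes, 6 times, 2 genotypes), with 2 of them at an unadjusted p under 0.05. From 633 to 3342 of all 15637 genes had such a p by time and genotype. The 2 tests were of Clock in WT mice at CT38, where 1536 genes had such a p, and in FoxP1SkmKO mice at CT18, where 2158 had. In WT mice 0.00, 0.00, 7.17, 0.00640, 0.00 and 0.0256% of all genes were called from CT18 to CT38, and in FoxP1SkmKO mice 0.0192, 0.00, 0.0384, 0.00, 0.00 and 0.00640%. The count at CT26 in WT mice rested on single libraries, with 1121 genes called in all, 86 without the first WT control mouse and 463 and 510 without the first and the second WT KPC mouse, and the other 11 counts, of 0 to 6 genes, ran from 0 to 227 with 1 mouse left out. The most marked of the 36 was Clock in WT mice at CT38, where the control mice had 1.73 and 1.27 FPKM and the KPC mice 1.02 and 0.944 FPKM. Clock was lower with KPC there by 0.61 on the log2 scale (-0.61, SE 0.12, adjusted p = 0.0519 by edgeR), which did not pass the threshold. DESeq2 on all 48 libraries gave an adjusted p of 0.0155 for it and called 1 of the 30 tests that had an adjusted p, edgeR without a filter on low counts gave 0.00448, and DESeq2 on the 4 libraries of that comparison alone gave 0.399. Without the first WT control mouse at CT38 the difference was -0.38 (adjusted p = 0.719 by edgeR), and without the second it was -0.81 (adjusted p = 0.00908). In FoxP1SkmKO mice at CT38 Clock was at 1.62 and 1.69 FPKM in control and 1.39 and 1.56 FPKM in KPC mice, a log2 difference of -0.17 (SE 0.12, adjusted p = 0.740 by edgeR).

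The other test at an unadjusted p under 0.05 was Clock at CT18 in FoxP1SkmKO mice, with 2.15 and 2.28 FPKM in control and 2.00 and 1.73 FPKM in KPC mice (log2 difference -0.24, SE 0.11, adjusted p = 0.335 by edgeR). In WT mice at CT18 the KPC mice were the higher ones, at 2.33 and 1.98 FPKM against 1.91 and 1.89 FPKM (0.17, SE 0.11, adjusted p = 0.851 by edgeR). The second FoxP1SkmKO KPC mouse at CT18, at 1.73 FPKM, is the library with 151 FPKM of pancreas and liver genes. For Arntl the differences at single times ran from -0.40 (SE 0.20, adjusted p = 0.563 by edgeR) in FoxP1SkmKO mice at CT26 to 0.29 (SE 0.25, adjusted p = 1) in the same genotype at CT34. For Npas2 they ran from -0.52 (SE 0.51, adjusted p = 0.608 by edgeR) in WT mice at CT26 to 0.89 (SE 1.03, adjusted p = 0.970) in WT mice at CT34.

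**Figure D4:**
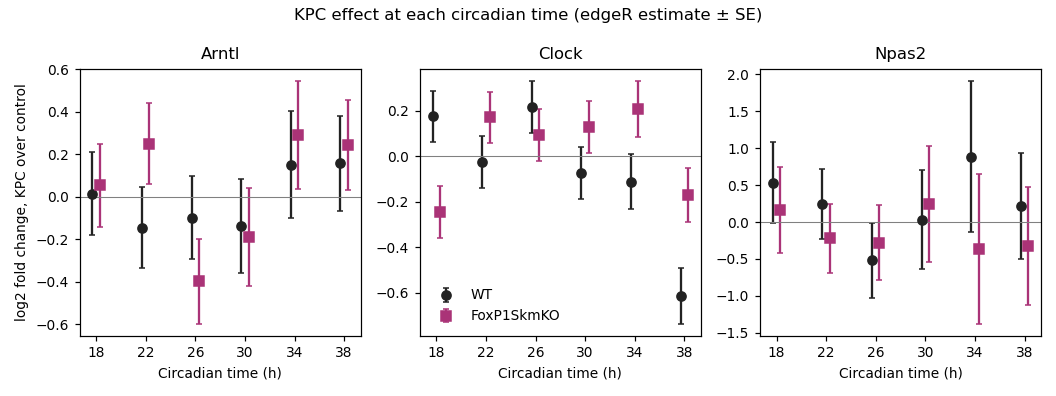
Log2 fold change of KPC over control mice (edgeR estimate ± SE, 2 mice per group) against circadian time in hours for Arntl, Clock and Npas2, with circles for WT and squares for FoxP1SkmKO mice, and vertical axes that differ between panels. Clock in WT mice at CT38 lies at -0.61, the estimate farthest from 0 relative to its SE, and the bars of Npas2 are the longest.

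The size of the KPC effect on Clock depended on the time of day in WT mice. The test on 5 degrees of freedom gave p = 4.3e-04 (n = 24 mice, adjusted p = 0.0487 by edgeR), a test that called 0.883% of all genes, and DESeq2 gave an adjusted p of 0.00657. The log2 differences of Clock in WT mice from CT18 to CT38 were 0.17, -0.03, 0.22, -0.07, -0.11 and -0.61. In FoxP1SkmKO mice they were -0.24, 0.17, 0.09, 0.13, 0.21 and -0.17, and the same test gave p = 0.0389 (n = 24 mice, adjusted p = 0.481 by edgeR), where 0.00% of all genes were called. Of all 15637 genes, 1912 in WT and 1526 in FoxP1SkmKO mice had an unadjusted p under 0.05 in this test. Neither Arntl (adjusted p = 0.957 in WT mice) nor Npas2 (adjusted p = 0.925) was called by edgeR. An adjusted p also follows how many other genes pass, so a lost call does not show at which times Clock differed. The call of Clock in WT mice sat at the threshold and was lost without CT26 (adjusted p of 0.989 by edgeR) or CT38 (0.671). It was lost as well without CT18 (0.0529), without the 2 libraries with high pancreas and liver genes (0.0542), and in 20 of the fits that left out 1 WT mouse, with adjusted p-values from 0.0535 to 0.417. These 20 were all WT control mice at CT18, CT22, CT26 and CT34, the first WT control mouse at CT38, the first WT KPC mouse at CT18, and all WT KPC mice at CT22, CT26, CT30, CT34 and CT38, with the highest values for the first WT control mouse at CT26 (0.417) and at CT38 (0.335).

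Whether FoxP1 in muscle fibers changes the KPC effect on Clock at a given time was tested as the difference between the genotypes. Of all 15637 genes, 654 at CT38 and 1633 at CT18 had an unadjusted p under 0.05 in that test by edgeR. For Clock the difference was 0.44 at CT38 (SE 0.17, adjusted p = 0.999998 by edgeR, with 0.00% of all genes called). At CT18 it was -0.42 (SE 0.16, adjusted p = 0.347, with 0.00% called). Both had an unadjusted p under 0.05. Neither passed the threshold, and without the 2 libraries with high pancreas and liver genes the CT18 difference was -0.32 (adjusted p = 0.763 by edgeR). At the other times the difference for Clock was 0.20 at CT22, -0.12 at CT26, 0.20 at CT30 and 0.32 at CT34, with SE of 0.16 to 0.17, where 0.00640, 0.345, 0.00 and 0.00640% of all genes were called.

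FoxP1SkmKO and WT mice, as labelled, did not differ at the threshold in the mean level of any activator. In control mice the genotype difference averaged over the times was -0.04 on the log2 scale (SE 0.09, adjusted p = 0.893 by edgeR) for Arntl, -0.02 (SE 0.05, adjusted p = 0.914) for Clock and -0.08 (SE 0.31, adjusted p = 0.934) for Npas2, where 3.44% of all genes were called. In KPC mice it was 0.02 (SE 0.09, adjusted p = 0.978 by edgeR) for Arntl, 0.09 (SE 0.05, adjusted p = 0.517) for Clock and -0.44 (SE 0.28, adjusted p = 0.595) for Npas2, where 0.320% were called. With edgeR 0 of these 6 tests had an unadjusted p under 0.05, and DESeq2 called 0 of 6.

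The rhythms were then compared between arms by their terms together and by basal level, amplitude and peak time apart. Of 12 tests of a difference in rhythm 1 had an unadjusted p under 0.05, that of Arntl between FoxP1SkmKO KPC and WT KPC mice (n = 12 per arm, p = 0.0445, adjusted p = 0.972), and edgeR on the counts gave an adjusted p of 0.695 for it. At that unadjusted threshold 4.34% of all genes passed, and with adjustment 0.00% did. Arntl peaked 1.26 h earlier in FoxP1SkmKO KPC than in WT KPC mice (-1.26 h, SE 0.513, n = 12 per arm, p = 0.0254, adjusted p = 0.985), and 0.826 h earlier in FoxP1SkmKO control than in WT control mice (-0.826 h, SE 0.336, p = 0.0282, adjusted p = 0.944), where 1.39% and 1.87% of all genes had an unadjusted p under 0.05. The peak of Arntl was earlier with KPC in each genotype by estimate, by -0.323 h (SE 0.477, p = 0.507) in WT and -0.755 h (SE 0.386, p = 0.0728) in FoxP1SkmKO mice (n = 12 per arm). The peak of Clock was 1.95 h later in FoxP1SkmKO KPC than in FoxP1SkmKO control mice (SE 0.898, n = 12 per arm, p = 0.0458, adjusted p = 0.922, with 2.09% of all genes at an unadjusted p under 0.05). Without the 2 libraries with high pancreas and liver genes that shift was 1.61 h with a p of 0.110. These 3 shifts were the only ones of 36 tests of basal level, amplitude and peak time with an unadjusted p under 0.05, and none passed with adjustment.

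The amplitude of Clock was larger by estimate in WT KPC than in WT control mice, by 0.263 FPKM (SE 0.151, n = 12 per arm, p = 0.0991, adjusted p = 0.99998), and Clock was the gene whose rhythm passed p = 0.01 in the one arm and not in the other. That contrast of thresholds is not a difference between the arms, since the test of the difference in rhythm itself had a p of 0.245. Without the second WT control mouse at CT38 the amplitude difference was 0.319 FPKM with a p of 0.0484, and without the first WT KPC mouse at CT18 it was 0.280 FPKM with a p of 0.0385. Basal levels of the 3 activators differed between arms by -0.0826 to 0.112 FPKM, each within its own SE for Arntl and Clock, and by -0.0413 FPKM (SE 0.0330, n = 12 per arm, p = 0.227) at most for Npas2.

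The unadjusted p-values under 0.05 for the peak of Arntl also rested on single mice. The earlier peak in FoxP1SkmKO KPC mice was between -1.47 and -0.919 h in the fits that left out 1 mouse, and its p rose above 0.05 without the second WT KPC mouse at CT26 (p of 0.0638), the first WT KPC mouse at CT38 (0.0696) or the second FoxP1SkmKO KPC mouse at CT26 (0.0669). The earlier peak in FoxP1SkmKO control mice was between -0.951 and -0.653 h, and its p rose above 0.05 without the first WT control mouse at CT18 (p of 0.0705) or CT26 (0.0778) or the second at CT38 (0.0649). All of these estimates kept the earlier peak in FoxP1SkmKO mice. For the peak of Clock in FoxP1SkmKO mice 16 of 24 such fits had a p of 0.0512 to 0.106.

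Most of the listed clock genes regarded as E-box targets were higher at CT34, when the activators were low, than at CT22. From CT22 to CT34, 1494 of all 15637 genes rose and 1477 fell by edgeR. Of 13 clock genes regarded as E-box targets, 11 were higher at CT34 than at CT22 and 1 was lower by edgeR, with a median log2 difference of 0.98 against -0.01 over all genes. The largest rises were those of Ciart (3.25), a repressor of the BMAL1 and CLOCK pair, of Dbp (3.05), an output transcription factor, and of Per2 (2.90), Per1 (1.78) and Per3 (1.31), the PERIOD repressors. Cry1, a cryptochrome repressor, was the gene that fell (-0.47), and Nr1d1, which encodes REV-ERBα, was not called (-0.19, adjusted p = 0.167 by edgeR). Peaks of the FPKM sinusoid lay at CT34.3 to CT35.4 for Per2, CT31.2 to CT32.6 for Dbp, CT27.0 to CT28.5 for Nr1d1 and CT17.7 to CT19.6 for Cry1 over the 4 arms. Rhythm p-values were under 0.01 for 13 of 13 E-box targets in WT control, 11 of 13 in WT KPC, 13 of 13 in FoxP1SkmKO control and 12 of 13 in FoxP1SkmKO KPC mice. The exceptions were Bhlhe40 and Bhlhe41, the DEC repressors, in WT KPC mice and Bhlhe41 in FoxP1SkmKO KPC mice.

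Of a list of 5 genes, the nuclear receptors of the ROR elements through which Arntl is controlled and Nfil3, which encodes a repressor of D-box genes, 4 passed the filter, 2 rose and 1 fell from CT22 to CT34 (median 0.18), and the rhythm p was under 0.01 for 4, 3, 3 and 4 of the 5 in WT control, WT KPC, FoxP1SkmKO control and FoxP1SkmKO KPC mice. Nr1d2 (0.98), which encodes REV-ERBβ, and Rora (0.55), an activating receptor, were higher at CT34, when Arntl was at its trough, and Nfil3 (-1.16), which does not act on ROR elements, was lower. Nfil3 peaked at CT17.9 to CT19.5 over the 4 arms. Rorb did not pass the filter.

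Of 15 cofactors of the clock (kinases, ubiquitin ligase subunits, a deacetylase and chromatin enzymes), 14 passed the filter, and 9 rose and 0 fell from CT22 to CT34 with a median log2 difference of 0.14, where 1494 of all 15637 genes rose and 1477 fell. Sirt1 (0.44), the deacetylase of BMAL1 and PER2, Nampt (0.33), which makes its cofactor NAD, and Gsk3b (0.33), a kinase of clock proteins, had the largest differences. Rhythm p-values under 0.01 were found for 4, 1, 3 and 3 of the 15 in WT control, WT KPC, FoxP1SkmKO control and FoxP1SkmKO KPC mice, and Nampt was among them in each arm. The share of all genes under that p in each arm is given above with the sinusoid fits. Of 13 other bHLH-PAS genes, the family to which the 3 activators belong, 10 passed the filter and 2 rose from CT22 to CT34, Arnt (0.16) and Hif1a (0.20), and the rhythm p was under 0.01 for 0 of 13 in each arm. Those 2 of 10 were near the share of all genes called between these times, 2971 of 15637. The BMAL1 paralog Arntl2 had a log2 difference of 0.18 (adjusted p = 0.650 by edgeR).

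**Figure D5:**
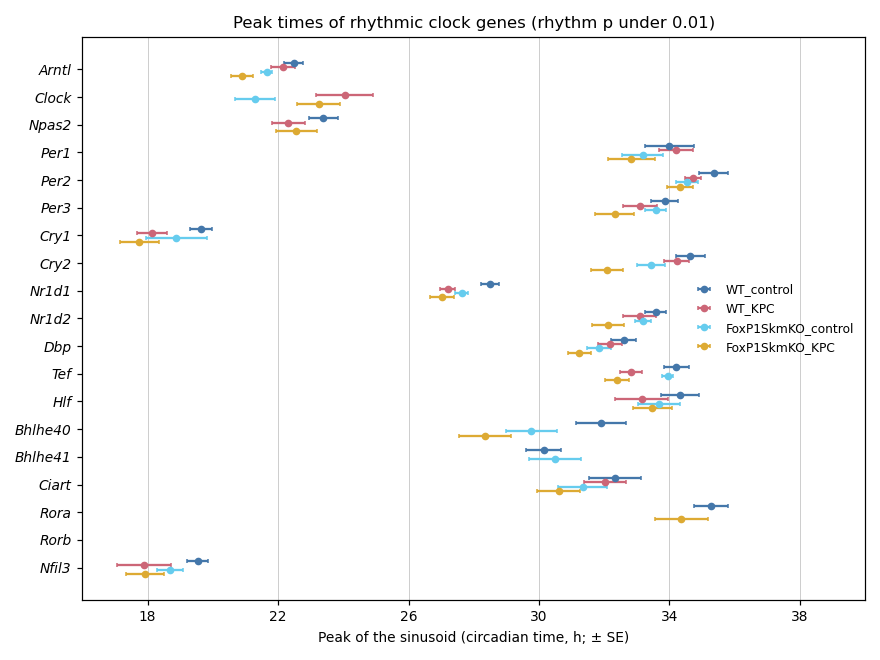
Peak of the fitted 24-h sinusoid (circadian time in hours, estimate ± SE) for the 3 activators, the E-box targets, the nuclear receptors of ROR elements and Nfil3, shown for each arm with a rhythm p under 0.01, so that Rorb has no point. The activators lie between CT20.9 and CT24.0, Cry1 and Nfil3 before them, and the Per genes at CT32.3 to CT35.4.

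With KPC tumors 2 E-box targets rose while the activators were not called. Averaged over the times in WT mice, 2 of 13 rose by edgeR, Per1 (0.61, SE 0.14, adjusted p = 0.0159) and Bhlhe40 (0.30, SE 0.07, adjusted p = 0.0186), and 0 fell, and no gene of the 3 other lists was called. Over all genes that test called 280 of 15637. In FoxP1SkmKO mice 0 of 13 were called by edgeR, with Per1 at 0.32 (SE 0.13, adjusted p = 0.283) and Bhlhe40 at 0.18 (SE 0.07, adjusted p = 0.245), where 67 of all 15637 genes were called. The test of the difference of the KPC effect between the genotypes called 0 of the 13 and 0 of all genes. A call in WT mice alone is thus not a difference between the genotypes. Per1 was also higher in FoxP1SkmKO control than in WT control mice (0.75, SE 0.13, adjusted p = 0.00123 by edgeR). At CT26 in WT mice Per1 (1.71), Per2 (1.09) and Per3 (0.46) and the chromatin enzymes Ep300 (0.83) and Kmt2a (0.78) rose by edgeR, while Arntl (-0.10, adjusted p = 0.829), Clock (0.22, adjusted p = 0.283) and Npas2 (-0.52, adjusted p = 0.608) were not called. At that time 1121 of all 15637 genes were called in WT mice, a count that moved when single mice were left out. With Clock, the genes of these lists whose KPC effect in WT mice depended on the time were Ep300 (adjusted p = 0.00271), Kmt2a (0.0483) and Nr1d1 (0.0390) by edgeR, a test that called 138 of all 15637 genes.

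Genes with the pattern most like each activator were named by the Pearson correlation of log2(FPKM + 1) over the 24 group means, among 10005 genes with a mean of at least 1 FPKM, as a description in which the points share their libraries. For Arntl the 5 highest were Miga2 (r = 0.97), Asb2 (0.96), Dyrk2 (0.95), Wdr6 (0.94) and Grip2 (0.94), and the 5 lowest Usp2 (-0.96), Tef (-0.96), Cry2 (-0.95), Nr1d2 (-0.95) and Per3 (-0.94). For Arntl 16 genes reached 0.9 and 9 fell to -0.9 or below. For Clock the 5 highest were Auts2 (0.90), Amer1 (0.90), Ptpn4 (0.90), 1110002E22Rik (0.88) and Arhgap20 (0.86), and the 5 lowest Tcap (-0.88), Mid1ip1 (-0.84), Nudt18 (-0.83), Dusp7 (-0.83) and Mcl1 (-0.81). None of the 10 was a clock gene of the lists used here, and 1 gene reached 0.9 and 0 fell to -0.9. For Npas2 the 5 highest were Wdr6 (0.91), Col5a3 (0.89), Miga2 (0.88), Grip2 (0.87) and Mif4gd (0.87), and the 5 lowest Per2 (-0.93), Usp2 (-0.92), Ncl (-0.88), Nfe2l2 (-0.88) and Cry2 (-0.88). By this measure Arntl and Npas2 shared 3 of their 5 highest genes (Miga2, Wdr6 and Grip2) and 2 of their 5 lowest (Usp2 and Cry2), and Clock shared none with either. The lists depended on the measure. Spearman's rho kept 2 of the 5 highest and 2 of the 5 lowest genes of Npas2, and 1 of the 5 lowest of Clock.

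Among the activators themselves Arntl and Npas2 had the most similar pattern (r = 0.89 over the 24 group means), followed by Arntl and Clock (0.75) and Clock and Npas2 (0.68). The group means differ mostly in the time of day. Within the 24 groups, the mouse with the higher Arntl of its pair also had the higher Npas2 in 15 of 24 groups, and the higher Clock in 11 of 24, while Clock and Npas2 were higher in the same mouse in 14 of 24.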

How the data were processed

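RNA-seq of the tibialis anterior of 48 mice was used, with groups and replicate numbers taken from the labels. The authors deposited 1 table of FPKM for all libraries and 12 tables, 1 for each genotype and circadian time, with the raw counts per gene of 4 libraries and, beside them, a signal column in which the authors had divided these counts by a size factor. Their columns of fold changes and p-values were not used. The methods name STAR and HTSeq on mm39, whereas the submitters' processing notes name HISAT2 2.0.5 and DESeq2 1.20.0. Which of these made the counts, and the strand setting, is not given in the sources used here.

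Counts of genes that a count table did not list were recovered from the FPKM (367 to 1064 reads per library). Counts were tested with edgeR 4.0.16 (filterByExpr, TMM, quasi-likelihood F test, 1 model of 24 groups, Benjamini-Hochberg over 15637 genes, threshold 0.05) in R 4.3.3. Replicates differed beyond sampling noise in every group (chi-square per degree of freedom of 4.79 to 15.8). Sinusoids of 24 h were fitted to FPKM by least squares in Python 3.11.15 with scipy 1.17.1, using F tests (rhythm threshold 0.01) and, for basal level, amplitude and peak time between arms, an unadjusted threshold of 0.05 with the adjusted p beside it. DESeq2 1.42.0, other normalizations, pseudocounts of 1 and 0.1, left-out libraries and times, and a replicate block were alternatives. Some of them, among them the fits without the 2 libraries with high pancreas and liver genes and all alternatives of the test of a KPC effect that varies with time, were chosen after seeing the data. Both tests were checked on simulated data.

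Arntl, Clock and Npas2 and the gene lists were chosen with earlier results of these data known. A withheld gene was left out of a list and is not reported here. Named genes are the 3 activators, Foxp1, the genes of the 4 lists, and for each activator the 5 most alike and 5 most opposite genes among those with a mean of at least 1 FPKM. The promoter window was widened to 500 bases before and 200 bases after the start after a narrower one held no match. Depth of 14480867 to 20787784 counts per library leaves Npas2 with 1 to 63 reads.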

Additional observations from a re-analysis of the deposited data

Results flagged for a closer look

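Clock in WT mice had a KPC effect that varied with circadian time (p = 4.3e-04, n = 24 mice, adjusted p = 0.0487 by edgeR), and in FoxP1SkmKO mice the same test gave p = 0.0389 (n = 24 mice, adjusted p = 0.481 by edgeR). Of all 15637 genes, 1912 in WT and 1526 in FoxP1SkmKO mice had an unadjusted p under 0.05 in it. Whether the dependence of the KPC effect on Clock on time differed between the genotypes as a whole was not tested. At single times the KPC effect on Clock differed between the genotypes by -0.42 on the log2 scale at CT18 (FoxP1SkmKO minus WT, SE 0.16, adjusted p = 0.347 by edgeR) and by 0.44 at CT38 (SE 0.17, adjusted p = 0.999998 by edgeR), both at an unadjusted p under 0.05 only. Of all 15637 genes, 1633 at CT18 and 654 at CT38 were under that unadjusted p.

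The peak of Clock was later by 1.95 h in FoxP1SkmKO KPC than in FoxP1SkmKO control mice (SE 0.898, adjusted p = 0.922). The peak of Arntl differed by -0.826 h between FoxP1SkmKO and WT control mice (SE 0.336, adjusted p = 0.944) and by -1.26 h between FoxP1SkmKO and WT KPC mice (SE 0.513, adjusted p = 0.985), and the rhythm of Arntl differed between the KPC arms with a p of 0.0445 (adjusted p = 0.972). All 4 had an unadjusted p under 0.05 and none passed with adjustment over all genes.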

How the results depend on the processing

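Of 2732 values for the 3 activators under another setting, 2493 counted as unchanged. For a test this meant the same side of the threshold, and the same sign where the value has one. For the genes most like or most opposite to an activator it meant at least 4 of the 5 genes kept. The replicate block changed no call, with an adjusted p of 0.0486 for the time-dependent KPC effect on Clock in WT mice and of 0.0501 for Clock at CT38. The numbers did not pair the mice, since 12 correlations of deviations between groups ran from -0.101 to 0.0854. The sign changes below were on values that did not pass the test, and their cause was not tested.

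Averaged genotype effects on the log2 scale changed sign for Arntl in KPC mice without CT18 (-0.0248), CT22 (-0.0400) or CT38 (-0.0576), for Clock in KPC mice without CT38 (-0.0113), and in control mice for Arntl without CT30 (0.0282), for Clock without CT30 (0.0286) or CT34 (0.0402) and for Npas2 without CT30 (0.0710). Averaged KPC effects changed sign for Arntl in FoxP1SkmKO mice without CT22 (-0.000154) or CT34 (-0.00868), for Clock in FoxP1SkmKO mice without CT34 (-0.00453), for Arntl in WT mice without CT22 (0.0165), CT26 (0.00691) or CT30 (0.0153) and for Clock in WT mice without CT38 (0.0359), and the difference between genotypes for Arntl did so without CT22 (-0.0166). The time-dependent KPC effect on Clock in WT mice lost its call without the 2 libraries with high pancreas and liver genes (adjusted p = 0.0542), without CT18 (0.0529), CT26 (0.989) or CT38 (0.671). Clock at CT38 in WT mice passed with no filter on low counts (-0.607, adjusted p = 0.00448) and with DESeq2 (-0.615, adjusted p = 0.0155).

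Rhythm p-values with adjustment over all genes were 0.165 for Clock and 0.136 for Npas2 in FoxP1SkmKO KPC mice, 0.0762 for Clock in FoxP1SkmKO control and 0.189 for Clock in WT KPC mice. Over genes of at least 1 FPKM they were 0.0715 for Clock in FoxP1SkmKO KPC and 0.0863 for Clock in WT KPC mice. Npas2 in FoxP1SkmKO control mice passed on log2(FPKM + 1) with a p of 0.00758, on log2(FPKM + 0.1) with 0.00304 and in the sinusoid on counts with 7.6e-10. On log2(FPKM + 0.1) the amplitude difference changed sign between FoxP1SkmKO KPC and control mice for Arntl (-0.00605), Clock (-0.00548) and Npas2 (0.00135), between genotypes in KPC mice for Npas2 (0.0483), and in control mice for Arntl (0.0167) and Npas2 (-0.0246). So did the basal level of Clock between genotypes in control mice (-0.00868, and -0.00296 on log2(FPKM + 1)), the peak of Npas2 with KPC in FoxP1SkmKO mice (0.0516 h) and the peak of Clock with KPC in WT mice (0.235 h, and 0.150 h on log2(FPKM + 1)). Without the 2 libraries the sign changed for the control genotype differences in the amplitude of Arntl (0.0130) and Npas2 (-0.00334) and in the basal level of Clock (-0.00204), and for the KPC genotype difference in the peak of Npas2 (-0.0202 h). The earlier peak of Arntl with KPC in FoxP1SkmKO mice came under 0.05 on log2(FPKM + 1) (-0.808 h), log2(FPKM + 0.1) (-0.816 h) and without the 2 libraries (-0.879 h), as did the rhythm difference of Arntl between control genotypes on log2(FPKM + 1) (p of 0.0450). The later peak of Clock rose above 0.05 on log2(FPKM + 0.1) (1.90 h) and without the 2 libraries (1.61 h). Of the 5 genes named per activator and side, Spearman's rho kept 3 for Arntl opposite, 1 for Clock opposite, 2 for Npas2 alike and 2 for Npas2 opposite, and log2(FPKM + 0.1) kept 3 and 3 for Npas2.

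With 1 mouse left out at a time, where the other mouse of its group is taken to vary like the other groups, the p of the rhythm of Clock in WT KPC mice ran from 7.1e-04 to 0.0175 and that of Npas2 in FoxP1SkmKO control mice from 0.00156 to 0.0350. The KPC effect on Clock ran from -0.00366 to 0.195 in FoxP1SkmKO mice at CT26, and in WT mice from -0.108 to 0.0653 at CT22, from -0.183 to 0.0478 at CT30 and from -0.812 to -0.376 at CT38. Averaged KPC effects ran from -0.0152 to 0.0863 for Arntl in FoxP1SkmKO, -0.122 to 0.0618 for Arntl in WT and -0.376 to 0.145 for Npas2 in FoxP1SkmKO mice. The adjusted p of the time-dependent effect on Clock in WT mice ran from 0.0107 to 0.417. Differences of the KPC effect between genotypes ran from -0.214 to 0.00220 for Clock at CT26 and -0.0211 to 0.163 for Arntl on average. Amplitude differences ran from -0.138 to 0.04995 for Arntl, 0.135 to 0.246 for Clock and -0.0264 to 0.0547 for Npas2 between control genotypes, from -0.0344 to 0.0872 for Clock and -0.0727 to 0.00839 for Npas2 with KPC in FoxP1SkmKO mice, from -0.108 to 0.0180 for Clock and -0.0537 to 0.00863 for Npas2 between KPC genotypes, and from 0.194 to 0.319 for Clock and -0.0267 to 0.0114 for Npas2 with KPC in WT mice. Basal differences ran from -0.0879 to 0.0139 for Arntl, -0.0292 to 0.0493 for Clock and -0.0291 to 0.0227 for Npas2 between control genotypes, from -0.00105 to 0.165 for Arntl and -0.0515 to 0.000397 for Npas2 with KPC in FoxP1SkmKO mice, from -0.0990 to 0.00925 for Clock and -0.000677 to 0.0249 for Npas2 with KPC in WT mice, and from -0.0610 to -0.0295 for Npas2 between KPC genotypes. Peak differences in h ran from -0.864 to -0.416 for Arntl, 1.52 to 2.33 for Clock and -0.756 to 0.432 for Npas2 with KPC in FoxP1SkmKO mice, from -1.47 to -0.919 for Arntl and -0.0535 to 0.593 for Npas2 between KPC genotypes, from -0.951 to -0.653 for Arntl between control genotypes, and from -0.377 to 1.25 for Clock and -1.43 to -0.653 for Npas2 with KPC in WT mice. The p of the rhythm difference ran from 0.0237 to 0.0862 for Arntl between KPC genotypes, from 0.0341 to 0.173 for Arntl and 0.0191 to 0.135 for Clock between control genotypes, and from 0.0218 to 0.242 for Clock with KPC in FoxP1SkmKO mice. Averaged genotype effects ran from -0.0571 to 0.127 for Arntl in KPC mice, and in control mice from -0.0650 to 0.000581 for Arntl, -0.0472 to 0.0254 for Clock and -0.359 to 0.0438 for Npas2.

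Counts of all genes called moved with no filter on low counts, from 280 to 794 for KPC in WT, from 67 to 527 for KPC in FoxP1SkmKO, from 538 to 933 and from 50 to 470 for genotype in control and KPC mice, from 138 to 806 and from 0 to 905 for the time-dependent KPC effect in WT and FoxP1SkmKO mice, and from 0 to 104 for the difference between genotypes. DESeq2 called 137, 101, 387 and 49 for KPC in FoxP1SkmKO mice, genotype in KPC mice and the time-dependent effect in WT and FoxP1SkmKO mice. With 1 time left out the counts ran from 118 (CT30) for KPC in WT, from 3 (CT18) to 130 (CT22) for KPC in FoxP1SkmKO, from 268 (CT38) for genotype in control, from 0 (CT30) to 138 (CT22) for genotype in KPC mice and from 0 (CT26) to 208 (CT30) for the time-dependent effect in WT mice. Without the 2 libraries with high pancreas and liver genes 50 became 30 for genotype in KPC mice. With 1 mouse left out the counts ran from 75 to 412 and from 17 to 228 for KPC in WT and FoxP1SkmKO mice, from 303 to 760 and from 17 to 198 for genotype in control and KPC mice, from 1 to 212 and from 0 to 42 for the time-dependent effect in WT and FoxP1SkmKO mice and from 0 to 4 for the difference between genotypes. The lowest were without the second WT KPC mouse at CT38 (75), the second FoxP1SkmKO KPC mouse at CT22 (17), the second FoxP1SkmKO control mouse at CT26 (303), the second WT KPC or first FoxP1SkmKO KPC mouse at CT22 (17) and the first WT control mouse at CT26 (1). At CT26 in WT mice 1121 genes became 345 with edgeR and 596 with DESeq2 on 4 libraries, and at CT38 in WT mice 4 became 306 with no filter, 63 and 79 on 4 libraries and 17 with DESeq2 on all. The counts of 0 to 6 genes at the other times rose with no filter to 164, 134, 165 and 221 at CT18, CT22, CT30 and CT34 in WT mice and to 596, 130, 176, 317, 87 and 372 from CT18 to CT38 in FoxP1SkmKO mice, and edgeR or DESeq2 on the 4 libraries gave 0 to 97. With 2 mice per group and 1 to 5 reads of Npas2 at CT34, changes of Npas2 at single times were not resolved.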
